A study of Mus musculus with 23 samples.

Results

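The proteasome subunit genes were taken as the genes whose symbol is Psma, Psmb, Psmc, Psmd, Psme, Psmf or Psmg followed by a number. They numbered 47 of 18193 genes on the array with a probe set of their own. Where a gene had several probe sets, the one brightest on average in wild-type cells stood for it. Of these, 45 genes reached log2 4 on at least 2 arrays and were tested; Psmb8 and Psmb11 did not. RNA was taken from testis cells that a cell sorter had separated by their Hoechst (DNA dye) signal, and was hybridised to 23 Affymetrix mouse arrays. The 3 Spo11-/- arrays, 1 for spermatogonia, 1 for pre-leptotene and 1 for leptotene/zygotene cells, came from males aged 10 to 16 weeks that lack the enzyme that makes meiotic DNA breaks. Cells of each Spo11-/- fraction were pooled from 2 collections, each over several mice, and these mice have no strain in the labels. The 20 wild-type arrays came from C57BL6xDBA2J F1 males of the same ages and comprised 4 of spermatogonia, 3 of pre-leptotene, 3 of leptotene/zygotene, 1 of early pachytene, 2 of mid-pachytene, 1 of late pachytene and 2 of diplotene cells, and 4 of round spermatids.

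The proteasome is the machine that breaks down proteins tagged with ubiquitin. Its core is a barrel of stacked rings: outer rings of alpha subunits gate the entrance, and inner rings of beta subunits carry the cutting sites. A regulatory particle, with a base of ATPases and a lid, recognises the tagged protein, unfolds it and feeds it in, while separate activators open the core without ATP. Male germ cells use variants of this machine: Psma8 encodes an alpha subunit made in the testis that takes the place of Psma7, and Psme4 encodes an activator known for the removal of acetylated histones in spermatids.

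Levels are log2(intensity + 1), and a change is a difference of log2 levels, given ± SE. A gene is said to rise or fall where limma gave a Benjamini-Hochberg adjusted p below 0.05 over all genes tested and the change was at least 1. A probe set's intensity depends on its sequence, so levels of different genes are not compared. Less RNA per cell and fewer cells of a type in a fraction cannot be told apart in these arrays. Wild-type arrays of a fraction are numbered as biological replicates, and precision is limited by how few there are.

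Median intensity per array lay between 10.63 and 12.56. Spo11 itself was at 4.30 in Spo11-/- spermatogonia, against 4.60 to 6.69 in the wild type, at 4.80 in pre-leptotene cells, against 4.61 to 7.03, and at 5.21 in leptotene/zygotene cells, against 7.42 to 8.95. The median of 5 spermatogonia markers was 10.60 to 11.59 in wild-type spermatogonia, 11.02 to 11.93 in pre-leptotene and 10.87 to 12.22 in leptotene/zygotene cells. That of 6 late-prophase markers was 13.48 to 13.82 in wild-type diplotene cells and 13.39 to 13.80 in round spermatids. For 5 markers of meiotic entry and early prophase it was 8.97 to 10.24 in wild-type spermatogonia and 8.58 to 9.28 in leptotene/zygotene cells. These sets thus did not tell neighbouring fractions apart. The median of 8 spermatid markers lay between 2.98 and 3.16 on the Spo11-/- arrays, where 7 or 8 of them were below log2 4. On the wild-type spermatogonia arrays it was 14.04, 14.59, 12.79 and 11.69, on the pre-leptotene and leptotene/zygotene arrays 10.27 to 11.31, and on the round spermatid arrays 13.20 to 13.90. RNA of spermatid genes was thus high on these wild-type arrays, and its part in the results was not tested. The median of 8 leukocyte markers was 7.81 on the Spo11-/- pre-leptotene array and 7.51, 6.79, 5.67 and 7.598 on the wild-type spermatogonia arrays, and at most 5.50 on every other array. T cell markers had a median of 8.87 on that Spo11-/- array, against at most 5.02 elsewhere, and Ptprc, the common leukocyte antigen, reached 12.91. The median of 5 stromal and peritubular markers was highest on wild-type spermatogonia array 4 (9.995), against 5.96 to 7.96 on the other spermatogonia arrays.

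Few proteasome genes, and few of all genes, were called up to leptotene/zygotene, and more at each later step. In pre-leptotene cells against spermatogonia 1 of 45 members was called, a fall of Psmf1, where 1.7% of all tested genes were called (1.64% lower). In leptotene/zygotene against pre-leptotene cells 1 was called, a rise of Psma8, where 3.11% of all genes were called (3.03% higher). In mid-pachytene against leptotene/zygotene cells 2 members rose and 5 fell, 7 of 45, where 29.3% of all genes were called (14.2% higher and 15.2% lower). In diplotene against mid-pachytene cells 9 fell and none rose, where 21.5% of all genes were called (6.98% higher and 14.5% lower). At that step 14 of 45 members had an unadjusted p below 0.05 in limma, in either direction, as did 4460 of all 13087 genes. In round spermatids against diplotene cells 2 rose and 5 fell, where 24.4% of all genes were called (12.5% higher and 12.0% lower).

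Over the whole course, in round spermatids against spermatogonia, 6 members rose and 22 fell. That is 28 of 45, near the background of 65.4% of all genes called (30.2% higher and 35.3% lower). The median change was -0.85 over the 45 members and -0.16 over all genes tested. Quantile normalization moved the median of all genes by 0.16, and the medians were then -0.96 for the members and -0.0040 for all genes, with 5 members higher and 22 lower. All 4 spermatid arrays lay below all 4 spermatogonia arrays for 26 members, and above them for 6. The share of all genes lying apart in this way was not counted, so these counts are not read as particular to the members. Across the 6 fractions with replicates, 35 of 45 members differed somewhere in limma's F-test, where 80.8% of all genes did. The 10 that did not pass in this fit, which does not pair arrays, were Psma6, Psmb5, Psmb6, Psmc5, Psmd2, Psmd4, Psmd6, Psmd7, Psmd12 and Psmg2. With replicate number as a block 42 members passed, and the share of all genes in that fit is not given. The lowest of the 8 fraction means was that of round spermatids for 30 of 45 members, and the highest was that of leptotene/zygotene cells for 17. How often this held among all genes was not counted.

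**Figure D1:**
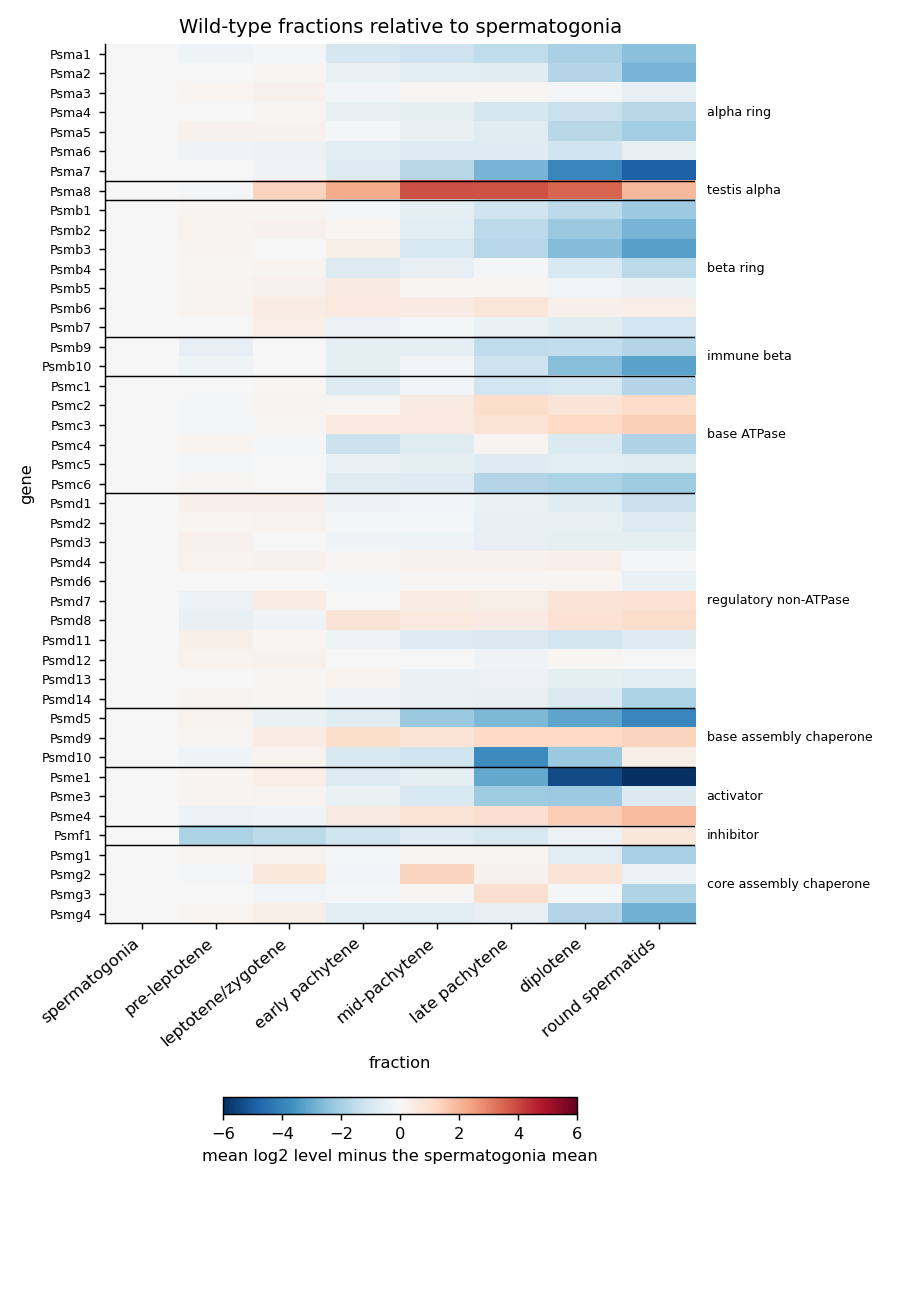
Mean log2 level of the 45 tested members in the 8 wild-type fractions (columns, in developmental order) minus the spermatogonia mean of the same gene, grouped by role; blue is lower and red higher than in spermatogonia. Psme1 (-5.97) and Psma7 (-4.90) are the darkest blue cells in round spermatids, and Psma8 is red from leptotene/zygotene cells onward.

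Psma8, the testis alpha subunit, whose gene is on chromosome 18, rose through meiotic prophase. In wild-type cells its level was 8.91, 9.46, 9.17 and 10.17 on the spermatogonia arrays, 8.79, 9.87 and 9.45 in pre-leptotene cells, and 10.40, 11.04 and 10.84 in leptotene/zygotene cells. It was 11.64 on the early pachytene array, 13.15 and 13.45 in mid-pachytene cells, 13.23 on the late pachytene array and 12.74 and 13.13 at diplotene. In round spermatids it was 10.76, 11.56, 11.67 and 11.42. The spermatogonia and pre-leptotene arrays overlapped, the leptotene/zygotene arrays lay above both, and the mid-pachytene, late pachytene and diplotene arrays lay above all others. The rise in leptotene/zygotene against pre-leptotene cells was 1.39 ± 0.35 (adjusted p = 0.0427). It lost its call without pre-leptotene array 1 (1.10, adjusted p = 0.228), pre-leptotene array 3 (1.43, adjusted p = 0.119), leptotene/zygotene array 2 (1.25, adjusted p = 0.134) or leptotene/zygotene array 3 (1.35, adjusted p = 0.205). The next rise, in mid-pachytene against leptotene/zygotene cells, was 2.55 ± 0.39 (adjusted p = 0.000355) and kept its call without each array. In round spermatids against diplotene cells Psma8 fell (-1.58 ± 0.37, adjusted p = 0.00508), a call lost without diplotene array 2 (-1.39, adjusted p = 0.057). Against spermatogonia it was still higher in round spermatids, by 1.93 ± 0.31 (adjusted p = 2.65e-05).

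Psma7, the alpha subunit that Psma8 replaces, whose gene is on chromosome 2, went the other way. Its level was 11.47, 11.44, 11.20 and 11.90 in wild-type spermatogonia, 11.13, 11.40 and 11.92 in pre-leptotene cells and 11.43, 11.23 and 11.27 in leptotene/zygotene cells. It was 10.72 on the early pachytene array, 10.47 and 9.22 in mid-pachytene cells, 8.73 on the late pachytene array, 8.30 and 6.85 at diplotene, and 6.97, 6.86, 6.56 and 6.04 in round spermatids. No array from early pachytene on reached the lowest array of the earlier fractions. It fell in mid-pachytene against leptotene/zygotene cells (-1.47 ± 0.43, adjusted p = 0.0174) and in diplotene against mid-pachytene cells (-2.27 ± 0.48, adjusted p = 0.00296). The first of these falls rested on mid-pachytene array 2 (-0.84, adjusted p = 0.305 without it), and the second lost its call without mid-pachytene array 1 (-1.64, adjusted p = 0.064) or diplotene array 2 (-1.54, adjusted p = 0.065). In round spermatids against spermatogonia the fall was -4.90 ± 0.34 (adjusted p = 2.86e-09), about 29.8-fold, and a second probe set of the gene gave -5.04.

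Within each array the log2 ratio of Psma8 to Psma7 was 3.79, 4.70, 5.10 and 5.38 in round spermatids, against -2.56, -1.98, -2.03 and -1.73 in spermatogonia. The groups did not overlap, and the difference of 6.82 passed a two-sided exact permutation test over the 8 arrays (p = 0.0286, the smallest that 4 against 4 arrays can give; adjusted p = 0.0381 over 4 pairs of genes). Such a difference shows unequal change of the probe sets, not which RNA was more abundant. With the arrays paired by replicate number the exact p is 0.125, the smallest that 4 pairs can give.

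**Figure D2:**
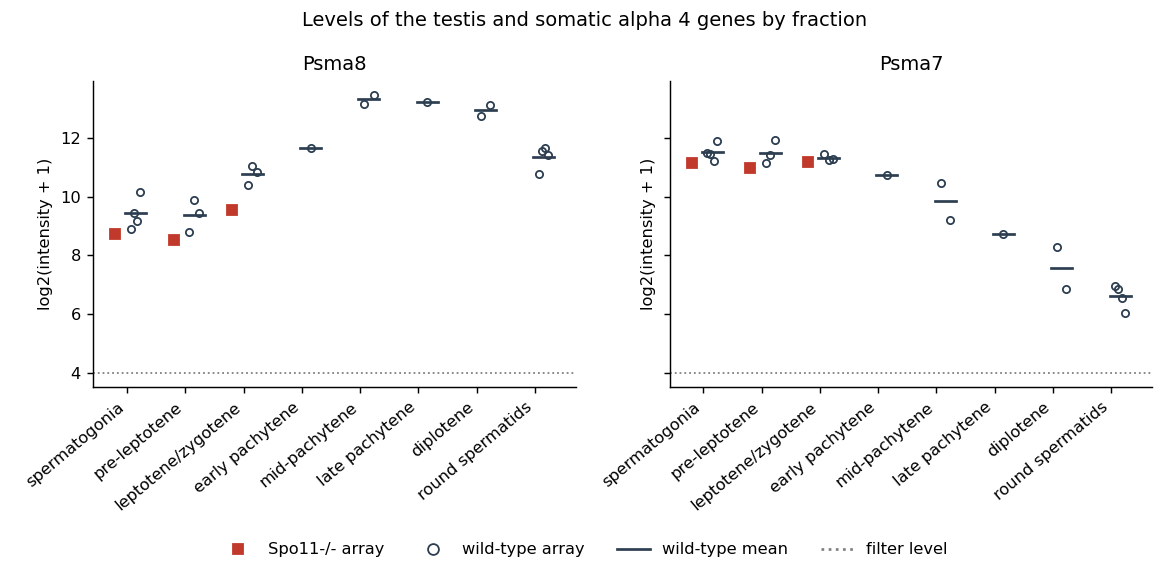
Level of Psma8 (left) and Psma7 (right) on each array, as log2(intensity + 1), by fraction in developmental order; squares are Spo11-/- arrays, circles wild-type arrays and bars wild-type means. The dotted line is the filter level of log2 4. Psma8 reaches 13.45 in mid-pachytene cells while Psma7 is at 6.04 to 6.97 in round spermatids.

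The genes whose 8 fraction means ran most like those of Psma8 were Piwil1, 4921525O09Rik, Ano10, Chst1 and Tacc1, with Pearson correlations of 0.99 each. Piwil1 encodes a PIWI protein of the piRNA pathway in meiotic and spermatid cells. Its mean was 7.25 in spermatogonia, 10.07 in leptotene/zygotene, 13.61 in mid-pachytene and 14.08 in late pachytene cells, and 11.25 in round spermatids. These correlations run over 8 means of the same arrays and describe likeness only. Among the members, 19 of the other 44 correlated with Psma7 at 0.9 or more over the same means and 6 at -0.8 or less. The same counts were not made over all genes. Psma8 correlated with Psma7 at -0.60.

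The other subunits of the core rings fell in part. Of the 14 standard alpha and beta ring genes, Psma7 included, 10 fell in round spermatids against spermatogonia, none rose and 4 did not pass, with a median change of -1.86, where 30.2% of all genes were higher and 35.3% lower. In the alpha ring Psma2 was at 10.09, 9.71, 9.73 and 9.62 in round spermatids, against 12.82, 12.23, 12.36 and 12.91 in spermatogonia. The fall was -2.79 ± 0.23 (adjusted p = 2.04e-08), with no overlap of the arrays. It came in part in diplotene against mid-pachytene cells (-1.13 ± 0.33, adjusted p = 0.0221) and in part in round spermatids against diplotene cells (-1.05 ± 0.29, adjusted p = 0.0123; -0.65 and adjusted p = 0.248 without diplotene array 1). Psma1 (-2.51 ± 0.31), Psma5 (-2.04 ± 0.33) and Psma4 (-1.68 ± 0.38) fell as well. Psma1 had fallen in mid-pachytene against leptotene/zygotene cells (-1.19 ± 0.40, adjusted p = 0.0336), a call lost with the replicate block (-0.95) and without leptotene/zygotene array 2 (adjusted p = 0.110) or 3 (adjusted p = 0.0876) or mid-pachytene array 1 (adjusted p = 0.101) or 2 (adjusted p = 0.159). That fall depended on the probe set: the mean of the Psma1 probe sets gave -0.51 (adjusted p = 0.222) and the dimmest -0.42 (adjusted p = 0.577). Over the whole course another Psma1 probe set gave -2.69, and the remaining 2 gave -0.37 and -0.87 and were not called. Psma3 changed by -0.49 (adjusted p = 0.0121), below the fold minimum, and Psma6 by -0.47 (adjusted p = 0.145).

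In the beta ring Psmb3 and Psmb2, subunits without a cutting site, fell most. Psmb3 was at 11.17, 10.27, 9.49 and 9.50 in round spermatids, against 13.58, 13.36, 13.05 and 13.47 in spermatogonia (-3.26 ± 0.41, adjusted p = 2.2e-06). Psmb2 was at 9.11, 9.38, 9.47 and 9.13 in round spermatids, against 12.00, 11.89, 12.01 and 12.28 in spermatogonia (-2.77 ± 0.20, adjusted p = 4.49e-09). For neither gene did the 2 groups of arrays overlap. Psmb2 had already fallen in diplotene against mid-pachytene cells (-1.57 ± 0.28, adjusted p = 0.00105), as had Psmb1 (-1.02 ± 0.25, adjusted p = 0.00889). Over the whole course Psmb1 (-2.19 ± 0.18) and Psmb4 (-1.60 ± 0.27) fell.

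The 3 cutting subunits of the beta ring changed less. Psmb5, which carries the chymotrypsin-like site, was at 11.31, 11.80, 11.61 and 11.39 in round spermatids, against 11.94, 11.80, 11.90 and 12.12 in spermatogonia (-0.41 ± 0.18, adjusted p = 0.0545). Psmb6, which carries the caspase-like site, was at 11.97, 12.16, 11.93 and 12.01 in round spermatids, against 11.84, 11.37, 11.23 and 11.97 in spermatogonia (0.42 ± 0.23, adjusted p = 0.105). For both genes the groups overlapped or touched. Psmb7, which carries the trypsin-like site, was at 10.55, 11.29, 11.58 and 11.62 in round spermatids, against 11.87, 12.10, 12.75 and 12.84 in spermatogonia. It fell by 1.13 ± 0.33 (adjusted p = 0.00537); without spermatogonia array 4 (-0.98) or round spermatid array 1 (-0.89) the change was under the fold minimum.

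The immune beta subunits take the places of these 3 when cells see interferon, and their peptides feed class I antigen presentation. Psmb8, the partner of Psmb5, has 2 probe sets, and the brighter one stayed between 3.13 and 3.81 on all 23 arrays. Whether that probe set detects Psmb8 RNA was not tested. Psmb11, the thymus form, stayed between 2.64 and 2.90. Psmb9, the partner of Psmb6, was at 3.93, 3.31, 3.36 and 3.98 in round spermatids, all below the filter level, against 4.52, 5.32, 4.46 and 7.28 in spermatogonia. The change is therefore a bound of at most -1.39, which was not itself tested. The fitted change, which uses the values below the filter level, was -1.74 (limma adjusted p = 0.00656). Without spermatogonia array 4 the bound was -0.76, under the fold minimum, and the fitted change -1.12 (adjusted p = 0.0174). The highest of these values, on spermatogonia array 4, came with a level of 9.39 for Ptprc on that array, against 6.99 to 7.84 on the other spermatogonia arrays; the part of leukocytes was not tested. Psmb10, the partner of Psmb7, was at 5.11, 4.58, 5.23 and 2.95 in round spermatids, against 7.96, 7.13, 7.08 and 8.59 in spermatogonia. It fell by 3.22 ± 0.54 (adjusted p = 4.72e-05), and its fall in diplotene against mid-pachytene cells (-2.38 ± 0.76, adjusted p = 0.0343) lost its call without mid-pachytene array 1 (-1.80, adjusted p = 0.258) or diplotene array 2 (-1.36, adjusted p = 0.360).

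Of the within-array ratios of these pairs, 1 of 2 passed the test. The log2 ratio of Psmb9 to Psmb6 was lower in round spermatids than in spermatogonia by at least 1.81 with Psmb9 set to the filter level (bound -1.81; measured -2.16, exact permutation p = 0.0286, adjusted p = 0.0381). The ratio of Psmb10 to Psmb7 differed by -2.09 (exact permutation p = 0.0571, adjusted p = 0.0571), and its arrays overlapped. With arrays paired by replicate number the exact p for Psmb9 to Psmb6 is 0.125. Of 9 tested genes of class I presentation, 2 rose and 5 fell in round spermatids against spermatogonia, with a median change of -1.46, beside 30.2% of all genes higher and 35.3% lower. Leukocyte markers had medians of 3.00 to 3.79 on the round spermatid arrays, against 5.67 to 7.598 on the spermatogonia arrays, and their part in these changes was not tested. The class I heavy chain gene H2-D1 averaged 7.13 ± 0.41 in round spermatids and 10.04 ± 0.76 in spermatogonia (SD, n = 4 each; -2.91 ± 0.44, limma adjusted p = 1.53e-05). B2m, the light chain (-2.40 ± 0.51), Irf1, an interferon-response factor (-3.12 ± 0.56), and H2-K1, another heavy chain (-1.46 ± 0.39), fell as well, and Erap1, which trims peptides, averaged 2.60 in round spermatids and 7.49 in spermatogonia. Tapbp, which loads class I molecules, rose by 2.04 ± 0.35, and Nlrc5 averaged 4.62 in round spermatids and 3.16 in spermatogonia.

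Genes of the regulatory particle were called in both directions. Of its 17 tested subunit genes, 3 rose, 5 fell and 9 did not pass in round spermatids against spermatogonia, with a median change of -0.65, where 65.4% of all genes were called (30.2% higher and 35.3% lower). Among the 6 ATPases of the base, Psmc3 was at 13.77, 14.22, 14.42 and 14.28 in round spermatids, against 12.53, 12.72, 13.01 and 12.78 in spermatogonia. This was a rise of 1.41 ± 0.21 (adjusted p = 1.06e-05) without overlap. Psmc2 was at 14.42, 13.89, 13.82 and 13.83 in round spermatids, against 13.22, 12.90, 12.63 and 12.78 in spermatogonia (1.11 ± 0.24, adjusted p = 0.000616), also without overlap. Psmc6 (-2.15 ± 0.21), Psmc4 (-1.85 ± 0.41) and Psmc1 (-1.74 ± 0.27) fell, Psmc6 already in diplotene against mid-pachytene cells (-1.12 ± 0.30, adjusted p = 0.0133), and Psmc5 changed by -0.74 (adjusted p = 0.0332), below the fold minimum. These 6 proteins form 1 ring, and their genes moved in both directions.

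Of the 11 other subunits of the regulatory particle, 1 rose, 2 fell and 8 did not pass, where 65.4% of all genes were called. Psmd8, a lid subunit, was at 11.97, 12.81, 12.96 and 12.78 in round spermatids, against 10.88, 11.96, 11.76 and 11.60 in spermatogonia. The lowest spermatid array lay just above the highest spermatogonia array (1.08 ± 0.34, adjusted p = 0.0094). Psmd14, which removes the ubiquitin chain from the substrate, was at 10.47, 10.13, 10.20 and 10.02 in round spermatids, against 12.21, 11.87, 12.07 and 12.30 in spermatogonia (-1.91 ± 0.18, adjusted p = 7.21e-08). Part of the fall came at the last step, with -1.03 ± 0.22 in round spermatids against diplotene cells (adjusted p = 0.00264). Psmd1, a scaffold of the base, fell by 1.32 ± 0.19. Psmd4, a ubiquitin receptor, changed by -0.10 (adjusted p = 0.703) and Psmd12 by 0.03 (adjusted p = 0.901). For Psmd11, which changed by -0.76, other probe sets of the gene gave -3.55 and 4.56, so no direction is given.

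The 3 chaperones that help build the base each took a course of their own. Psmd5 was at 8.29, 8.09, 7.16 and 7.74 in round spermatids, against 11.55, 11.82, 11.87 and 11.71 in spermatogonia (-3.92 ± 0.29, adjusted p = 6.42e-09). It had fallen by 1.82 ± 0.38 in mid-pachytene against leptotene/zygotene cells (adjusted p = 0.00228; -1.19 and adjusted p = 0.077 without mid-pachytene array 2). Psmd9 was at 9.90, 10.18, 9.87 and 9.74 in round spermatids, against 8.32, 8.49, 8.56 and 8.92 in spermatogonia (1.35 ± 0.18, adjusted p = 4.66e-06). All spermatid arrays were above all spermatogonia arrays, but a second Psmd9 probe set gave -0.71. The mean of all 3 Psmd9 probe sets lost the call (0.22, adjusted p = 0.222).

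Psmd10, also known as gankyrin, is the 1 member on the X chromosome, which is silenced in pachytene cells of males. In wild-type cells it was at 8.72, 8.39, 8.71 and 9.22 in spermatogonia and at 9.08, 8.84 and 9.06 in leptotene/zygotene cells. It was at 7.87 on the early pachytene array, 7.84 and 7.29 in mid-pachytene cells, 4.94 on the late pachytene array and 6.65 and 6.45 at diplotene. In round spermatids it was at 9.29, 8.98, 9.25 and 8.86, overlapping the spermatogonia arrays. It fell in mid-pachytene against leptotene/zygotene cells (-1.43 ± 0.28, adjusted p = 0.00164) and again in diplotene against mid-pachytene cells (-1.02 ± 0.31, adjusted p = 0.0256). That call was lost without mid-pachytene array 1 (-0.74, adjusted p = 0.233), diplotene array 1 (-1.11, adjusted p = 0.054) or diplotene array 2 (-0.92, adjusted p = 0.146). It rose in round spermatids against diplotene cells (2.55 ± 0.27, adjusted p = 1.6e-05). Round spermatids differed from spermatogonia by 0.34 (adjusted p = 0.169).

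The activators diverged most. Psme1, which with Psme2 forms the interferon-inducible activator of the cytosol, was at 10.78, 10.50, 10.51 and 11.58 in wild-type spermatogonia and at 11.30, 11.19 and 11.28 in leptotene/zygotene cells. It was at 10.84 and 9.69 in mid-pachytene cells, 7.77 on the late pachytene array, 6.90 and 4.02 at diplotene and 6.64, 4.65, 4.39 and 3.80 in round spermatids. The arrays of diplotene cells and round spermatids lay below every earlier array. It fell by 4.80 ± 0.83 in diplotene against mid-pachytene cells (adjusted p = 0.000757) and by 5.97 ± 0.59 in round spermatids against spermatogonia (adjusted p = 1.17e-07), about 62.8-fold. Psme2 was measured only by a probe set it shares with Psme2b and is not a member. That probe set averaged 10.19 ± 0.58 in spermatogonia (SD, n = 4), 9.50 in mid-pachytene cells, 5.04 at diplotene and 3.92 ± 0.65 in round spermatids (SD, n = 4).

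Psme4 rose. It was at 13.12, 13.30, 13.19 and 13.46 in round spermatids, against 11.21, 11.86, 11.63 and 10.87 in spermatogonia, a rise of 1.87 ± 0.24 (adjusted p = 2.5e-06) without overlap. In mid-pachytene against leptotene/zygotene cells it rose by 1.04 ± 0.31 (adjusted p = 0.0183). That call was lost without leptotene/zygotene array 1 (0.88, adjusted p = 0.069), mid-pachytene array 1 (1.10, adjusted p = 0.052) or mid-pachytene array 2 (0.98, adjusted p = 0.133), and it was 0.43 (adjusted p = 0.365) with the mean of the Psme4 probe sets and 0.10 (adjusted p = 0.894) with the dimmest. Of its 6 probe sets tested, 3 were called in round spermatids against spermatogonia, at 1.87, 1.87 and 2.25, and 3 were not, at 0.53, 0.57 and 0.21.

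Psme3, an activator of the nucleus, was at 9.95 and 9.59 in mid-pachytene cells, against 11.06, 10.93 and 10.68 in leptotene/zygotene cells (-1.12 ± 0.23, adjusted p = 0.00241; -0.94 and adjusted p = 0.052 without mid-pachytene array 2). It fell again in diplotene against mid-pachytene cells (-1.28 ± 0.26, adjusted p = 0.00214). In round spermatids it was at 10.02, 9.61, 9.76 and 9.83, against 8.63 and 8.34 at diplotene, a rise of 1.32 ± 0.22 (adjusted p = 0.00045). A second Psme3 probe set gave -1.02 at that step and -3.27 in round spermatids against spermatogonia, where the first gave -0.85, so the course of Psme3 after diplotene depended on the probe set. The within-array log2 ratio of Psme4 to Psme3 was 3.10, 3.69, 3.43 and 3.62 in round spermatids, against 0.58, 0.97, 1.25 and 0.14 in spermatogonia. Its difference of 2.73 passed the exact permutation test (p = 0.0286, adjusted p = 0.0381) but was -0.027 with the dimmest probe set of each gene (that of Psme3 was not above the filter level), and the exact p with paired arrays is 0.125.

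**Figure D3:**
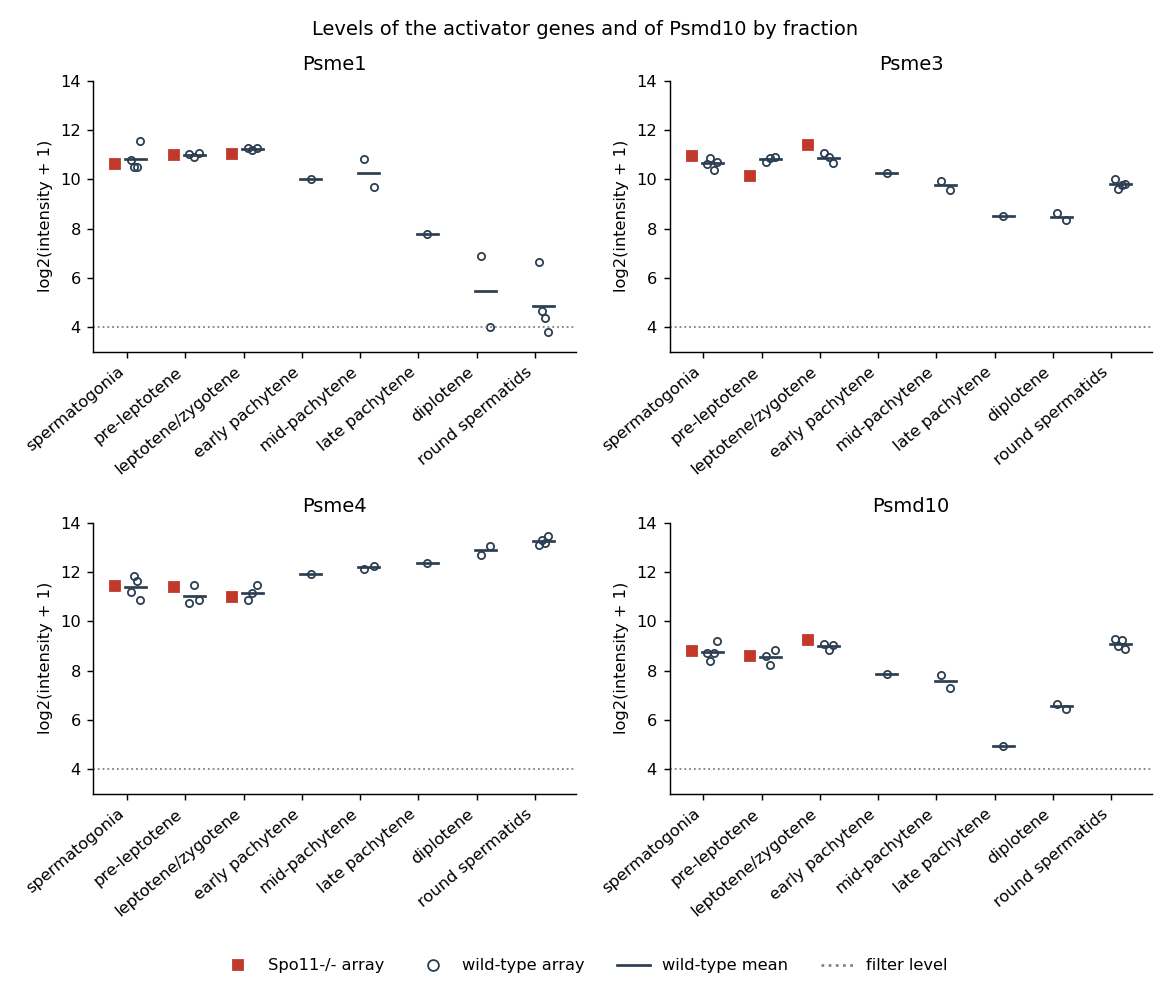
Level of the activator genes Psme1, Psme3 and Psme4 and of the X-linked Psmd10 on each array, as log2(intensity + 1), by fraction; squares are Spo11-/- arrays, circles wild-type arrays and bars wild-type means. Psme1 ends at 3.80 to 6.64 in round spermatids, Psme4 ends at 13.12 to 13.46, and Psmd10 dips to 4.94 on the late pachytene array.

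Psmf1, the proteasome inhibitor PI31, was at 8.42, 8.64 and 8.59 in pre-leptotene cells, against 10.77, 11.94, 10.00 and 9.05 in spermatogonia (-1.89 ± 0.45, adjusted p = 0.0467). In round spermatids it was at 11.21, 10.91, 11.23 and 11.03. The spermatogonia arrays with the higher Psmf1 levels were those with the higher spermatid markers, whose part was not tested. The call was lost without spermatogonia array 1 (-1.78, adjusted p = 0.133), spermatogonia array 2 (-1.39, adjusted p = 0.076) or any pre-leptotene array (adjusted p between 0.075 and 0.203). Without spermatogonia arrays 1 and 2 together the change was -0.97 (adjusted p = 0.275), and the other tested Psmf1 probe sets changed by -0.11 each.

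Of the 4 chaperones that build the core, 3 fell over the whole course, where 30.2% of all genes were higher and 35.3% lower. Psmg1, Psmg3 and Psmg4 fell in round spermatids against spermatogonia, by 1.93 ± 0.21, 1.82 ± 0.38 and 2.88 ± 0.45 on the log2 scale, and Psmg2 changed by -0.36 (adjusted p = 0.66). Psmg1 was at 9.33, 9.48, 9.40 and 9.07 in round spermatids, against 10.999 and 10.26 at diplotene (-1.31 ± 0.26, adjusted p = 0.00165). Psmg3 was at 5.41, 4.57, 4.27 and 3.70 in round spermatids, against 6.83 and 5.66 at diplotene (-1.76 ± 0.47, adjusted p = 0.0103). In both cases all spermatid arrays were below both diplotene arrays. The dimmest Psmg3 probe set gave -0.99 (adjusted p = 0.271). Without diplotene array 1 both calls were lost, Psmg1 at -0.94 (adjusted p = 0.061) and Psmg3 at -1.17 (adjusted p = 0.204).

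**Figure D4:**
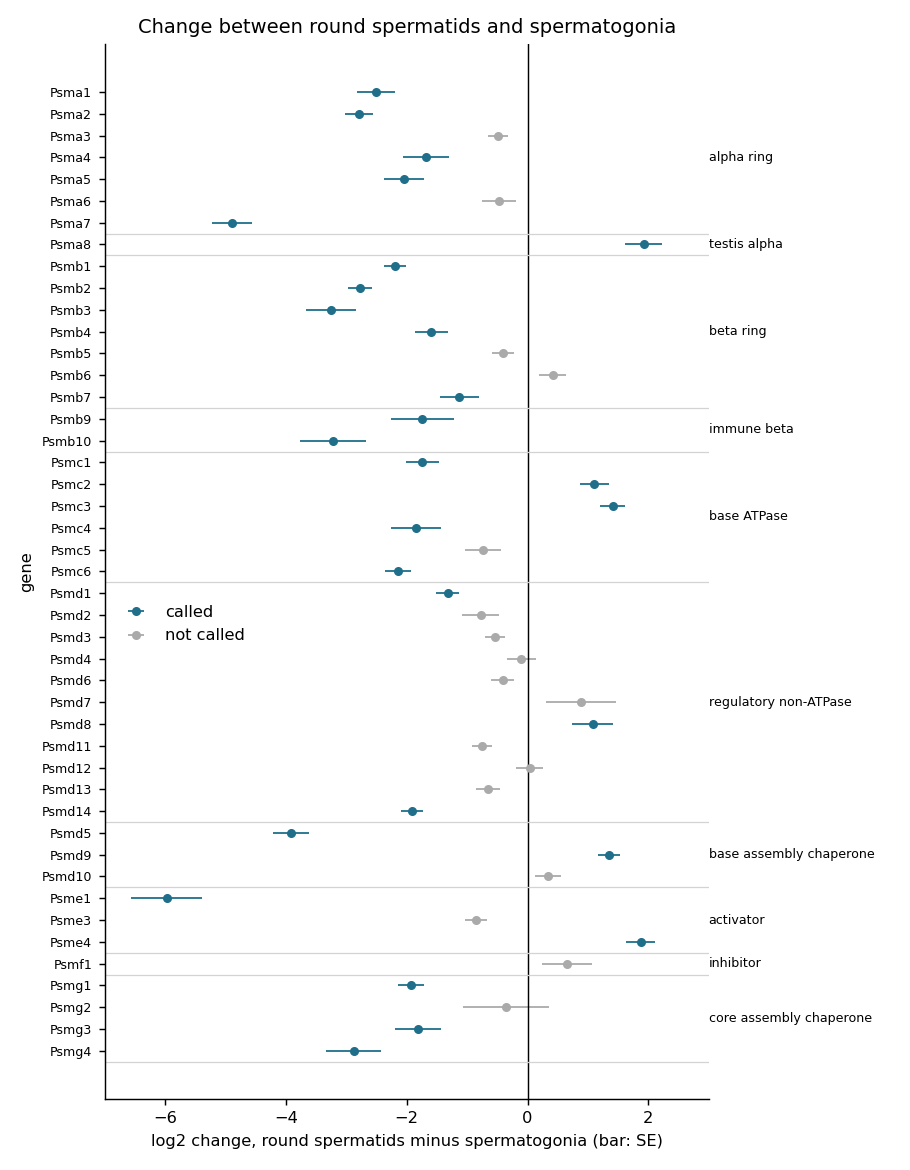
Fitted log2 change of each of the 45 tested members in round spermatids minus spermatogonia (4 arrays each), with the SE as a bar, grouped by role; filled blue points were called and grey points were not. The 6 called rises lie right of 0 and the 22 called falls left of it, down to -5.97 for Psme1; the Psmb9 point is the fitted value, of which only the bound of -1.39 can be given.

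Other genes of the pathway also changed in both directions. Of 20 tested genes of proteasome-bound factors, maturation, transcription, ubiquitin activation and the segregase, 3 rose and 10 fell in round spermatids against spermatogonia, a share close to the 65.4% of all genes called. Their median change was -0.87, against -0.16 over all genes. Uba6, a ubiquitin-activating enzyme, averaged 5.25 ± 1.12 in round spermatids and 10.46 ± 0.50 in spermatogonia (SD, n = 4 each; -5.20 ± 0.47, limma adjusted p = 4.9e-08). Ubqln2, which shuttles ubiquitinated proteins to the proteasome, fell by 5.01 ± 0.64, while its relative Ubqln1 rose by 1.55 ± 0.22. Nfe2l2, a stress-response transcription factor that also acts on subunit genes, fell by 3.85 ± 0.52, Txnl1, a proteasome-bound thioredoxin, by 3.09 ± 0.30 and Usp14, a proteasome-bound deubiquitinase, by 2.84 ± 0.28. Ngly1, which processes the subunit gene activator Nfe2l1, rose by 2.08 ± 0.39. Of the maturation genes, Pomp, which assembles the core, fell by 1.53 ± 0.19, and Akirin2, which brings proteasomes into the nucleus, rose by 1.49 ± 0.17. In the earlier steps 0 of the 20 were called in pre-leptotene against spermatogonia and in leptotene/zygotene against pre-leptotene cells. Of all genes 1.7% and 3.11% were called at these 2 steps. In mid-pachytene against leptotene/zygotene cells 4 fell, Nfe2l2 (-2.01), Usp14 (-1.39), Txnl1 (-1.12) and Zfand5 (-1.02), where 15.2% of all genes were lower. In diplotene against mid-pachytene cells Ube3c rose by 1.26 and 2 fell, where 21.5% of all genes were called. In round spermatids against diplotene cells Uba6 fell by 2.48, where 24.4% of all genes were called.

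Promoter windows were examined because members moved in opposite directions. A window of 250 bases before to 50 after the start site from RefSeq (GRCm38.p6) was at hand for 39 members. The letters TGACNNNGC, the core of the antioxidant response element that Nfe2l1 and Nfe2l2 bind, were searched on both strands. They occurred in 12.4% of all 32851 windows and in those of 6 members: Psmd9 and Psme4, which rose in round spermatids against spermatogonia, Psmc6, which fell, and Psmb5, Psmb6 and Psmd12, which did not pass. CCAAT, bound by NFY, was found in 37.4% of all windows and for 14 members, AACTG, part of the MYB site, in 44.8% and for 16 members, and GTTGCC, part of the RFX site, in 12.5% and for 6 members. A match is a description of the letters only. The stretch of 60 bases before to 10 after the start site is shown for the 2 risers with the letters, for the 2 cutting subunits that hold them near the start and did not pass, and for Psma7, which fell and has none there; capitals mark TGACNNNGC on either strand.
Psme4 (chr11:30771715-30771784, + strand): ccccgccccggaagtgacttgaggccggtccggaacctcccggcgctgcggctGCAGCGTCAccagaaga
Psmd9 (chr5:123228130-123228199, + strand): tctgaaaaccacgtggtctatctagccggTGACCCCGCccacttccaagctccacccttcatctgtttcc
Psmb6 (chr11:70525297-70525366, + strand): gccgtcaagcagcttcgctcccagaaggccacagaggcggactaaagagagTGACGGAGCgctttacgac
Psmb5 (chr14:54617986-54618055, - strand): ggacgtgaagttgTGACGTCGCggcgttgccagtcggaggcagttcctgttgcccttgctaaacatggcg
Psma7 (chr2:180042455-180042524, - strand): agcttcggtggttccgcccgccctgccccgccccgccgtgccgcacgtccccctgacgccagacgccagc

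Few proteasome genes were called in Spo11-/- cells, which with 1 array per fraction does not show that the others were at wild-type levels. With fraction and genotype as additive terms over 13 arrays, 1 of 45 members was called lower in Spo11-/- cells and none higher, where 11.7% of all genes were called (1.63% higher and 10.0% lower). The median change was 0.041 over the members and -0.052 over all genes. Unadjusted, 8 of 45 members had a limma p below 0.05, as did 3701 of all 11980 genes. Genotype cannot be told apart from strain here. The fit takes the 3 Spo11-/- arrays as independent, but whether they come from the same mice is not given. A test of whether the genotype difference varied with the fraction called 0 members, with 2 at an unadjusted p below 0.05 (Psmb9 and Psme3) and 2.02% of all genes called.

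The called gene was Psmd13, a lid subunit encoded on chromosome 7. It was at 8.74 in Spo11-/- spermatogonia, against 10.64, 10.99, 11.32 and 11.42 in wild-type spermatogonia. It was at 8.22 in Spo11-/- pre-leptotene cells, against 10.95, 11.25 and 11.21 in the wild type, and at 8.26 in Spo11-/- leptotene/zygotene cells, against 10.999, 11.20 and 11.30 in the wild type. All 3 Spo11-/- arrays lay below the lowest wild-type array of these fractions, at 10.64. The change was -2.72 ± 0.20 (adjusted p = 9.37e-06), about 6.59-fold lower. A second probe set gave -2.61, and another, dimmer one gave 0.0046. In wild-type round spermatids Psmd13 was at 10.12 to 10.67, above all 3 Spo11-/- arrays, and the spermatid markers, of which 7 or 8 of 8 were below log2 4 on each Spo11-/- array, moved with genotype; their part was not tested.

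Psma8 was below every wild-type array of its own fraction in each Spo11-/- array, without passing the test. The median of the 6 late-prophase markers was 3.34, 3.40 and 4.01 on the Spo11-/- arrays, where 3 or 4 of them were below log2 4, against 7.57 to 11.35 on the wild-type arrays of these fractions; their part was not tested. Psma8 was at 8.74 in Spo11-/- spermatogonia, against 8.91 to 10.17 in the wild type, and at 8.54 in Spo11-/- pre-leptotene cells, against 8.79 to 9.87 in the wild type. In leptotene/zygotene cells it was at 9.56, against 10.40 to 11.04 in the wild type. The fitted change was -0.90 ± 0.29 (adjusted p = 0.051). Psma7 was at 11.14, 10.97 and 11.19 in the Spo11-/- fractions, also below the wild-type range of its own fraction in each, with a change of -0.33 (adjusted p = 0.275). Psmd3, another lid subunit, was at 9.79, 9.39 and 9.57 in the 3 Spo11-/- fractions, against 10.10 to 10.63 over the wild-type arrays of these fractions (-0.78 ± 0.16, adjusted p = 0.0076), below the fold minimum.

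Psmf1 was at 8.19, 7.68 and 7.74 in the Spo11-/- fractions, against 8.42 to 11.94 in the wild type (-1.42 ± 0.47, adjusted p = 0.0595). Its brightest probe set again differed from the others, which changed by -0.13 and -0.093. All 3 Spo11-/- arrays lay below all 10 wild-type arrays for Psmd3, Psmd13 and Psmf1, where 10.1% of all genes did so. They lay above for Psmb1 and Psmd14, by fitted changes of 0.37 and 0.20, where 2.48% of all genes did so.

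Psmb9 stood out on the Spo11-/- pre-leptotene array, at 7.61, against 5.33, 4.34 and 4.998 in wild-type pre-leptotene cells. It was at 3.83 in Spo11-/- spermatogonia and 3.85 in Spo11-/- leptotene/zygotene cells, both below the filter level, against 4.46 to 7.28 and 4.89 to 5.92 in the matching wild-type arrays. T cell markers were highest on the Spo11-/- pre-leptotene array but not confined to it. Cd3e, a part of the T cell receptor complex, was at 8.87 there and at 3.41 in Spo11-/- leptotene/zygotene cells. In Spo11-/- spermatogonia it was at 6.19, against 4.25 to 5.17 in wild-type spermatogonia. On the Spo11-/- pre-leptotene array 4 of 5 T cell markers and 8 of 8 leukocyte markers were above log2 4. Psmb10 was at 7.89 there, against 7.95, 6.89 and 7.38 in wild-type pre-leptotene cells, and Psme1 at 10.99, against 11.02, 10.91 and 11.09. The part of leukocytes in the Psmb9 level was not tested. Of the list of other pathway genes, 1 of 20 was called in Spo11-/- against wild-type cells, where 11.7% of all genes were called. It was the ubiquitin shuttle gene Rad23b, which averaged 11.002 ± 0.21 in Spo11-/- cells (SD, n = 3) and 12.56 ± 0.37 in wild-type cells (SD, n = 10; -1.56 ± 0.25, limma adjusted p = 0.00171).

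**Figure D5:**
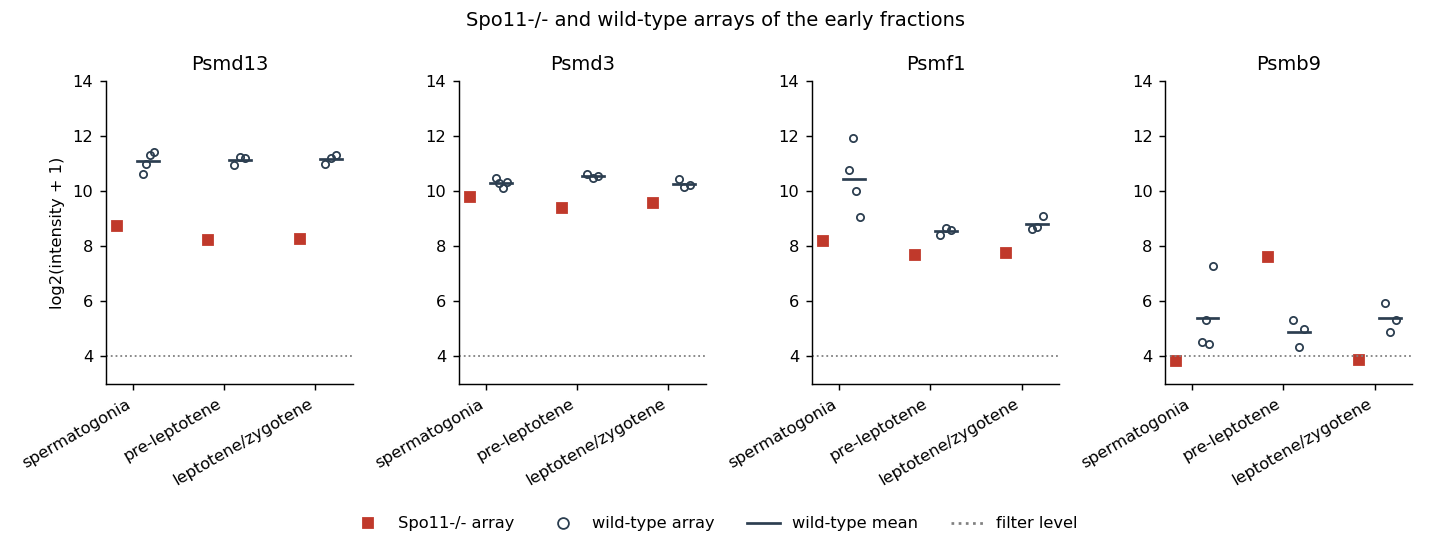
Level of Psmd13, Psmd3, Psmf1 and Psmb9 on each array of the early fractions, as log2(intensity + 1); squares are Spo11-/- arrays, circles wild-type arrays and bars wild-type means. Psmd13 is at 8.22 to 8.74 in Spo11-/- cells and at 10.64 or more in wild-type cells, and Psmb9 is at 7.61 on the Spo11-/- pre-leptotene array alone among the Spo11-/- arrays.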

How the data were processed

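RNA of sorted germ cells was measured on 23 Affymetrix arrays. The deposited values are intensity on a linear scale, summarised per probe set with GCRMA per the submitters' processing notes, with no version or settings given in the sources used here. They were analysed as log2(value + 1). Of 45037 probe sets, 34945 carried 1 gene symbol in the platform table, updated through RefSeq (GRCm38.p6) for 34741, and gave 18193 genes. Genes reaching log2 4 on at least 2 arrays of a fit were kept: 13087 in the fit of wild-type fractions (20 arrays) and 11980 in the fit that includes Spo11-/- cells (13 arrays).

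Changes were fitted with limma 3.58.1 in R 4.3.3, 1 mean per fraction, or fraction plus genotype, with Benjamini-Hochberg adjustment over all genes; calls needed an adjusted p below 0.05 and an absolute log2 change of at least 1 (F-tests only the p). The fits were tested on simulated data. A group below log2 4 on all its arrays has only a bound. Within-array ratios were compared with two-sided exact permutation tests.

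Replicate numbers appear in the labels; over 22375 probe sets the deviations of same-numbered arrays correlated at 0.60, 0.57 and 0.22 (pre-leptotene and spermatogonia), 0.62, 0.22 and 0.40 (leptotene/zygotene and pre-leptotene) and 0.42, 0.15, 0.15 and 0.16 (round spermatids and spermatogonia). The same-numbered array was the best match except for pre-leptotene array 3 and, over 13087 genes, also leptotene/zygotene array 2 (0.083). Same-numbered arrays were still read as pairs in those comparisons. The main fits have no block, and the main permutation tests are unpaired.

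The members, the gene lists and the tests were chosen with earlier results of these data known. Genes were named by role, with the largest called changes of each comparison, up to 6 called pathway genes per comparison and the 5 genes most like Psma8. Alternatives were the filter, the probe set per gene, the scaling, the offset, eBayes settings, the fold minimum, the block, a fit on 2 fractions alone and leaving out arrays.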

Additional observations from a re-analysis of the deposited data

How the results depend on the processing

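The counts of called members in pre-leptotene against spermatogonia (1) and in leptotene/zygotene against pre-leptotene cells (1) were the least stable. The first was 0 without the filter, with the mean or the dimmest of a gene's probe sets, with quantile normalization, median centring, an offset of 16 or the arrays of the 2 fractions alone, and without spermatogonia arrays 1 and 2 together, an alternative chosen after seeing the data. The second was 0 without the filter, with median centring or with the 2 fractions alone; leaving out each array gave 0 to 1 for both. In mid-pachytene against leptotene/zygotene cells the count of 7 was 4 with the mean of a gene's probe sets and 11 with no fold minimum, and 2 to 9 without each array, with 2 without mid-pachytene array 2. In diplotene against mid-pachytene cells the count of 9 was 0 with the 2 fractions alone and 4 to 10 without each array (4 without mid-pachytene array 1 or diplotene array 2). In round spermatids against diplotene cells the count of 7 was 3 to 8 without each array (3 without diplotene array 1). In round spermatids against spermatogonia the count of 28 was 27 to 29 without each array. The F-test's 35 was 22 with the dimmest probe set and 34 to 36 without each array. The Spo11-/- count of 1 was 0 with the dimmest probe set and 2 with trend and robust eBayes, no fold minimum, or without spermatogonia arrays 1 and 2 together, and 1 to 2 without each array; it was 2 without spermatogonia array 2 or 4. The interaction count of 0 was 1 without wild-type spermatogonia array 4 (0 to 1 without each wild-type array). It could not be refitted without a Spo11-/- array.

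With the replicate block the counts were 1, 1, 9, 11 and 10 at the successive steps, 28 in round spermatids against spermatogonia and 42 in the F-test. For this and the other alternative settings the shares of all genes called are not given. The changes in these counts are therefore not read as particular to the members. For the ratios the differences with the replicate block were 6.82 (Psma8 to Psma7), -2.16 (Psmb9 to Psmb6) and 2.73 (Psme4 to Psme3), each at an exact p of 0.125, the smallest that 4 pairs allow. Of the called genes that are named, Psma1 in mid-pachytene against leptotene/zygotene cells lost its call with the block (-0.95). With the dimmest probe set of each gene the ratio of Psma8 to Psma7 differed by 6.96 and that of Psmb9 to Psmb6 by -2.16, each at an adjusted p of 0.0571, and the ratio of Psme4 to Psme3 reversed to -0.027. Without each array the ratio differences ran from 6.61 to 7.14 (Psma8 to Psma7), -2.53 to -1.65 (Psmb9 to Psmb6), -2.54 to -1.47 (Psmb10 to Psmb7) and 2.53 to 2.90 (Psme4 to Psme3), with adjusted p between 0.0381 and 0.0857. The ratio of Psmb8 to Psmb5 was not run because the brighter Psmb8 probe set was below log2 4 on every array. Where a setting changed a result, the cause was not tested.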
